A study of Mus musculus with 4 samples.

Results

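The core circadian clock loop was represented by 10 genes, Arntl (also called Bmal1), Npas2, Clock, Per1, Per2, Per3, Cry1, Cry2, Nr1d1 and Nr1d2, which were found by symbol in a table of 24054 genes. They were selected on the difference between treated and control muscles in these same libraries, read by expected phase, so that difference is described below with no p printed, their count past the study's thresholds is given as part of that description, and neither supports anything. The libraries came from soleus muscles of female *mdx* mice (C57BL/10ScSn-DMDmdx/J), which carry a mutant dystrophin gene in every group. From 8 weeks of age until the 12-month endpoint, mice received mouse cardiosphere-derived cells (mCDCs) or vehicle, the culture medium IMDM, by monthly infusion into the femoral vein, and 2 soleus libraries of each group were compared. The mCDCs were grown to passage 5 from 1 heart of a C57BL/10ScSn/J mouse, so every treated animal received cells of the same source. Muscles of both groups were dystrophic, and no healthy muscle was in the comparison. Total expected counts ran from 22481391 to 27187425 per library. All 10 clock genes passed the filter on low counts, as did 13652 genes in all. An exact two-sided permutation test of 2 libraries against 2 has 0.333 as its smallest possible p. Beyond a replicate number the labels do not say that the libraries of a group came from separate mice, so p-values measure the spread between these libraries, which may be technical. The sources used here give no hour of collection, and time of collection and treatment cannot be told apart.

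The circadian clock of a cell is a feedback loop of transcription. The protein of Arntl pairs with that of Clock or of its paralog Npas2 and switches on genes that carry E-boxes, among them the Per, Cry and Nr1d genes. The PER and CRY proteins then block that pair, and the nuclear receptors REV-ERBα and REV-ERBβ, made from Nr1d1 and Nr1d2, repress Arntl and Npas2 through ROR elements. Transcripts of Arntl and Npas2 therefore peak at a time of day opposite to those of Nr1d1, Nr1d2 and the Per genes, with Cry1 in between, and skeletal muscle keeps such a clock of its own. In what follows Arntl, Npas2 and Clock are called the activators, Per1, Per2, Per3, Cry2, Nr1d1 and Nr1d2 the opposite class, and Cry1 is placed in neither. Clock itself is known to cycle weakly in most tissues.

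The promoters are shown first because the loop acts through short sequences in them. RefSeq promoters on GRCm38.p6 were found for 9 of the 10 genes, 13 promoters in all, and Per2 was not matched. The 250 bases before each transcription start were searched on both strands for the E-box CACGTG, the variant E-box CACGTT, the D-boxes TTATGTAA and TTACGTAA to which the factors of Dbp, Tef and Hlf bind, the ROR elements TAGGTCA and TGGGTCA, and the cAMP response element TGACGTCA. Of all 32851 promoters, 6.02% held CACGTG, 3.85% CACGTT, 0.819% TTATGTAA, 0.113% TTACGTAA, 2.23% TAGGTCA, 3.24% TGGGTCA and 1.55% TGACGTCA. Counted by gene, since a gene can have several promoters, 6.86% of 27025 genes held CACGTG, 4.50% CACGTT and 0.977% TTATGTAA. Among the 9 genes, CACGTG was in promoters of Per1 and Cry1, CACGTT in those of Cry1, Cry2 and Nr1d1, and TTATGTAA in that of Per3. Per3 held TTATGTAA at 2 places, beginning 205 and 158 bases before the start. No match to the D-box TTACGTAA, to either ROR element or to the cAMP response element lay in these windows, which says nothing of sites elsewhere. The 5 stretches that held a match are printed 5′ to 3′ on the strand of the gene, with each match in capitals, and stop before the first annotated exon base. They lie at chr4:151044666-151044915 for Per3 (minus strand), chr11:69098699-69098947 for Per1 (plus strand), chr10:85185065-85185304 for Cry1 (minus strand), chr2:92434070-92434319 for Cry2 (minus strand) and chr11:98775378-98775627 for Nr1d1 (minus strand).
Per3: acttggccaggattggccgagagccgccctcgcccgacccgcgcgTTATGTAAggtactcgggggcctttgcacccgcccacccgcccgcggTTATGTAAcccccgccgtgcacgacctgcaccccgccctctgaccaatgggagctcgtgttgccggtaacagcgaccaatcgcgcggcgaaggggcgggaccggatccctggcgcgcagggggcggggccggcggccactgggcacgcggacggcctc
Per1: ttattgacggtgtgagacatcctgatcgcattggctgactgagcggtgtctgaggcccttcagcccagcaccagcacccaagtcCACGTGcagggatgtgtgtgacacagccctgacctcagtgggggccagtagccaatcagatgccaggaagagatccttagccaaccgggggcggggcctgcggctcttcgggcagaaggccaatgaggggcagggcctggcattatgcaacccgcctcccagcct
Cry1: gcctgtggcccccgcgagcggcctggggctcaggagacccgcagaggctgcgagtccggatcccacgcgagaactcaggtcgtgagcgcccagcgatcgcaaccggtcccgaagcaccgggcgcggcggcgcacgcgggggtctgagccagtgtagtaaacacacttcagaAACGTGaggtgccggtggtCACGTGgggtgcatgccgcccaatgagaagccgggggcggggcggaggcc
Cry2: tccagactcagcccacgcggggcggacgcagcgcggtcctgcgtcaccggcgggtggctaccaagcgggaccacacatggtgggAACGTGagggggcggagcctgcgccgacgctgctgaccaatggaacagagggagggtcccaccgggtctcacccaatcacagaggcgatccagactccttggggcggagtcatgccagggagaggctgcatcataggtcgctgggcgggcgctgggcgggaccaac
Nr1d1: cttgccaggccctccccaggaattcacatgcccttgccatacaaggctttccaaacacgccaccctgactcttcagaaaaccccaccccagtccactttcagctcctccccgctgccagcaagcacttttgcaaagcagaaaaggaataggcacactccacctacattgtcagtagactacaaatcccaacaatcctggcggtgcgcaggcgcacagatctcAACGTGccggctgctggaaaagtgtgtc
In Per1 the CACGTG began 166 bases before the start. Cry1 held CACGTG 60 bases and CACGTT 79 bases before the start, without overlap. The CACGTT of Cry2 lay 166 bases and that of Nr1d1 28 bases before the start. All 3 CACGTT matches were on the opposite strand and are printed as AACGTG. The RefSeq starts used for Per1 and Cry1 lie inside the span that GENCODE gives the gene, and those of Cry2 and Nr1d1 upstream of it, so these distances hold for the RefSeq starts. A match is a run of letters and not evidence of binding in these muscles.

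Levels of the 10 genes were compared as CPM (counts brought to a common library total, with TMM scaling, the trimmed mean of M-values, between libraries) divided by the length in kb of the longest coding GENCODE transcript. Nr1d1 was the most abundant of the 10 in every library, at 88.9 ± 21.8 CPM per kb (SD, n = 4) over all libraries. Nr1d2 followed at 19.9 ± 3.67, Cry2 at 18.6 ± 3.63 and Per1 at 16.8 ± 8.58, and the ranges of these 3 overlapped. Cry1 stood at 5.90 ± 0.14, Per3 at 5.08 ± 2.15, Arntl at 4.45 ± 1.68 and Per2 at 3.24 ± 1.54, and the range of each overlapped that of the next. These means are over both groups, and the order of the 4 genes differed between them. In vehicle libraries Per3 (6.54 and 7.30) was above Cry1 (5.96 and 6.07), and Per2 (4.96 and 4.01) above Arntl (2.95 and 3.40). In mCDC libraries Cry1 (5.79 and 5.78) was above Per3 (3.30 and 3.17), and Arntl (6.68 and 4.76) above both Per3 and Per2 (1.53 and 2.46). Clock had 2.25 ± 0.20 CPM per kb, which lay inside the range of Per2. Npas2 was lowest, at 0.335 ± 0.142, and its range of 0.215 to 0.527 did not reach that of Clock, 2.08 to 2.54. The order of the means over all libraries was the same with the median length of the coding transcripts, although Cry1 then stood at 11.2 CPM per kb, since its median coding transcript is 1602 bases long against 3026 for the longest.

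**Figure D1:**
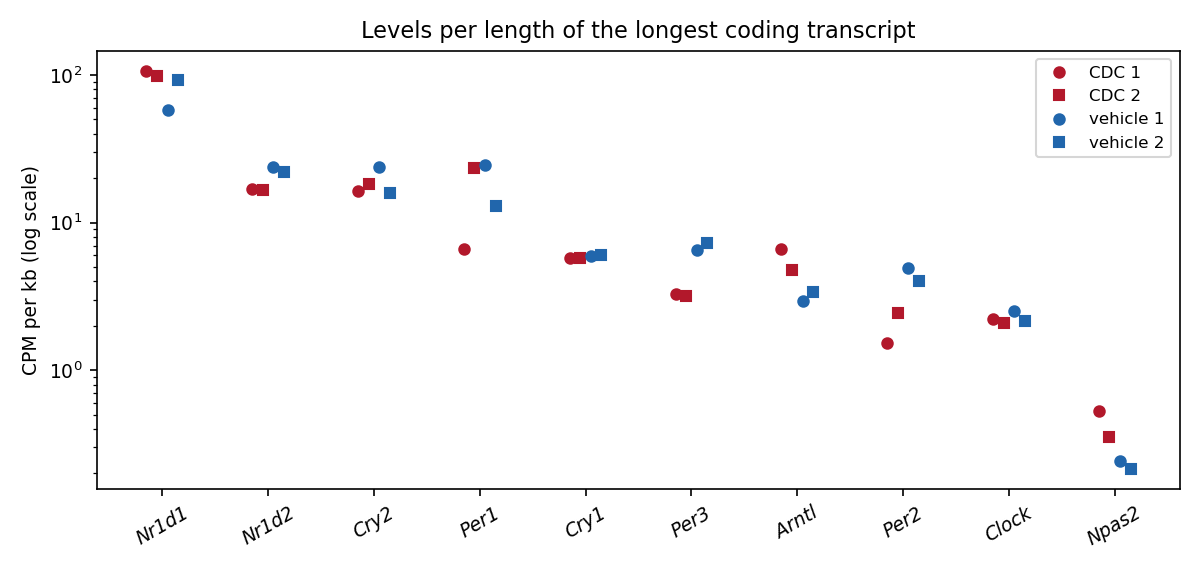
Level of each core clock gene in each library, as CPM per kb of the longest coding transcript on a log axis, with genes in order of their mean. Circles are replicate 1 and squares replicate 2, red for mCDC (CDC) and blue for vehicle. Nr1d1 sits highest and Npas2 lowest in all 4 libraries, and the points of Per1 are spread from 6.61 to 24.5.

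The activator Arntl and its partner gene Npas2 had higher levels in both mCDC libraries than in either vehicle library, while Clock did not follow them. Arntl (chr7:113207465-113314126, GRCm38, plus strand), the transcription factor without which the loop stops, had 19.9 and 14.2 CPM in mCDC replicates 1 and 2 against 8.78 and 10.1 CPM in vehicle replicates 1 and 2. The groups did not overlap, and mCDC replicate 1 was the highest library. Group means were 17.0 ± 4.05 CPM (SD, n = 2) and 9.44 ± 0.946 CPM (SD, n = 2), a log2 fold change of 0.85 (standard error 0.21). Without mCDC replicate 1 it was 0.58. Npas2 (chr1:39193731-39363236, plus strand), which can stand in for Clock, had 2.23 and 1.51 CPM in mCDC libraries against 1.03 and 0.91 CPM in vehicle libraries. The groups did not overlap. These levels rested on 59 and 33 counts against 27 and 25 counts. The log2 fold change of Npas2 was 0.96 (standard error 0.36), with 0.64 when mCDC replicate 1 was left out. Clock (chr5:76209868-76304792, minus strand) had 21.7 and 20.3 CPM in mCDC libraries against 24.8 and 21.1 CPM in vehicle libraries, and the groups overlapped. Its log2 fold change was -0.13 (standard error 0.16), and it turned to 0.11 when the trend in transcript length and GC content was removed. Per length, Npas2 amounted to 0.237 and 0.171 of the level of Clock in mCDC libraries against 0.0957 and 0.099 in vehicle libraries.

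**Figure D2:**
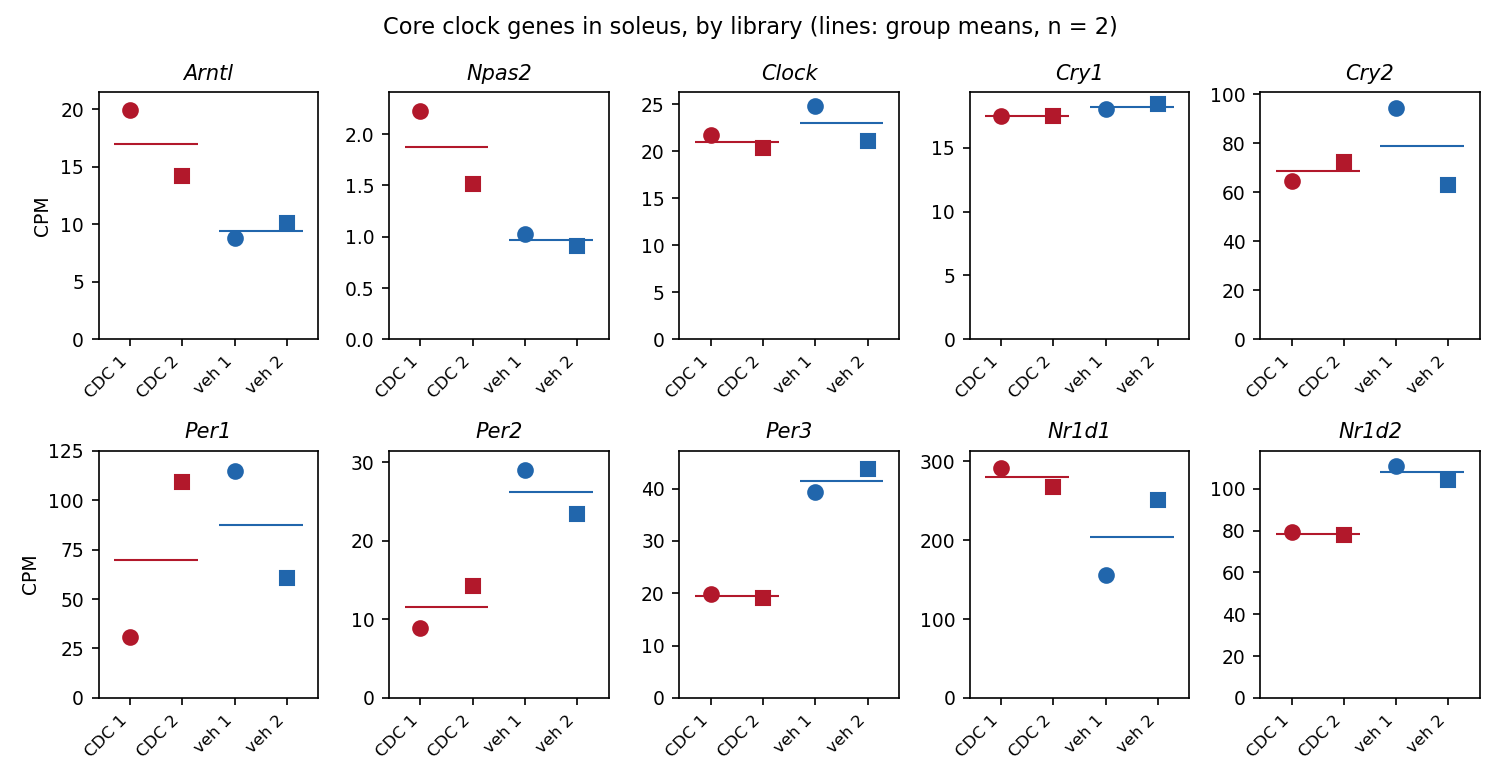
CPM of the 10 core clock genes in each of the 4 soleus libraries, each panel on its own axis from 0. Circles are replicate 1 and squares replicate 2, red for mCDC (CDC) and blue for vehicle (veh), and lines are the means of 2 libraries. Arntl, Npas2 and Nr1d1 lie higher and Per2, Per3 and Nr1d2 lower in both mCDC libraries, Cry1 differs by less than 1 CPM, and Per1, Cry2 and Clock overlap.

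Of the period genes, whose proteins carry the repression of the activators, Per2 and Per3 had lower levels in both mCDC libraries than in either vehicle library, while the level of Per1 varied widely within each group. Per3 (chr4:151003652-151044665, minus strand) had 19.8 and 19.0 CPM in mCDC replicates 1 and 2 against 39.3 and 43.8 CPM in vehicle replicates 1 and 2. Libraries of the same group differed by 1.04-fold among the mCDC libraries and by 1.11-fold among the vehicle libraries, against a 2.14-fold lower fitted level in mCDC libraries. The log2 fold change of Per3 was -1.10 (standard error 0.15), and fits without any 1 library gave -1.17 to -1.02. Per3 was selected on this contrast, so neither this range nor the closeness of its libraries is support. Per2 (chr1:91415982-91459324, minus strand) had 8.90 and 14.3 CPM in mCDC libraries against 29.0 and 23.4 CPM in vehicle libraries. The groups did not overlap, and mCDC replicate 1 was lowest. The log2 fold change of Per2 was -1.18 (standard error 0.24), with -1.55 when mCDC replicate 2 was left out and -0.87 when mCDC replicate 1 was. Per1 (chr11:69095217-69109960, plus strand), which is also known to respond directly to glucocorticoids and to cAMP signalling, had 30.9 and 109 CPM in mCDC libraries against 115 and 60.5 CPM in vehicle libraries. The level of Per1 thus differed 3.52-fold between the 2 mCDC libraries and 1.90-fold between the 2 vehicle libraries, and the groups overlapped. Its log2 fold change of -0.33 (standard error 0.51) became 0.31 when mCDC replicate 1 was dropped, 0.21 when vehicle replicate 1 was and -1.50 when mCDC replicate 2 was, so that its sign rested on single libraries. Per length, Per1 stood at 4.33 times Per2 in mCDC replicate 1, 9.47 times in mCDC replicate 2, and 4.94 and 3.23 times in vehicle libraries. Per3 stood at 2.16 and 1.29 times Per2 in mCDC libraries against 1.32 and 1.82 times in vehicle libraries.

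The cryptochrome genes, whose products are partners of the PER proteins, differed little in their mean level between the groups. Cry1 (chr10:85131700-85185064, minus strand) had 17.5 CPM in both mCDC libraries and 18.0 and 18.4 CPM in vehicle libraries. The groups did not overlap, but the log2 fold change was only -0.06 (standard error 0.15), with -0.06 to -0.04 on leaving out a library. Cry2 (chr2:92403646-92434043, minus strand) had 64.8 and 72.5 CPM in mCDC libraries against 94.6 and 63.2 CPM in vehicle libraries, so that vehicle replicate 1 was highest and vehicle replicate 2 lowest. Its log2 fold change was -0.20 (standard error 0.20) and became 0.12 without vehicle replicate 1. Exons of the noncoding gene D930015M05Rik cover 4.67% of the exonic bases of Cry2 on the other strand, and reads there cannot be told apart if strand was not used in counting.

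The REV-ERB genes, direct targets of the activators and repressors of Arntl, had log2 fold changes of opposite sign, and for both the mCDC libraries lay to 1 side of the vehicle libraries. Nr1d2 (chr14:18204054-18239127, minus strand) had 79.2 and 77.7 CPM in mCDC libraries against 111 and 104 CPM in vehicle libraries. Libraries of a group differed by 1.02-fold and 1.08-fold, and the log2 fold change was -0.45 (standard error 0.13), under the 1.5-fold threshold. It was -0.31 with the trend in length and GC content removed. Of the 31-base words in the transcripts of Nr1d2, 9.51% also occur in transcripts of the gene model AC170187.1, a share above that of the other 9 genes, where it was at most 0.47%. Nr1d1 (chr11:98767932-98775333, minus strand) had 292 and 268 CPM in mCDC libraries against 156 and 251 CPM in vehicle libraries. Both mCDC libraries were higher, and vehicle replicate 1 stood apart from the other 3. The log2 fold change of Nr1d1 was 0.46 (standard error 0.21), with 0.84 when vehicle replicate 2 was left out and 0.16 when vehicle replicate 1 was. Nr1d1 shares 263 exonic bases, 8.55% of its own, with the thyroid hormone receptor gene Thra on the other strand. Thra had 58.7 and 51.3 CPM in mCDC libraries against 58.3 and 55.0 CPM in vehicle libraries, which is -0.04 on the log2 scale (standard error 0.14, edgeR adjusted p = 0.956). Per length, Nr1d1 stood at 6.32 and 5.91 times Nr1d2 in mCDC libraries against 2.40 and 4.15 times in vehicle libraries.

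**Figure D3:**
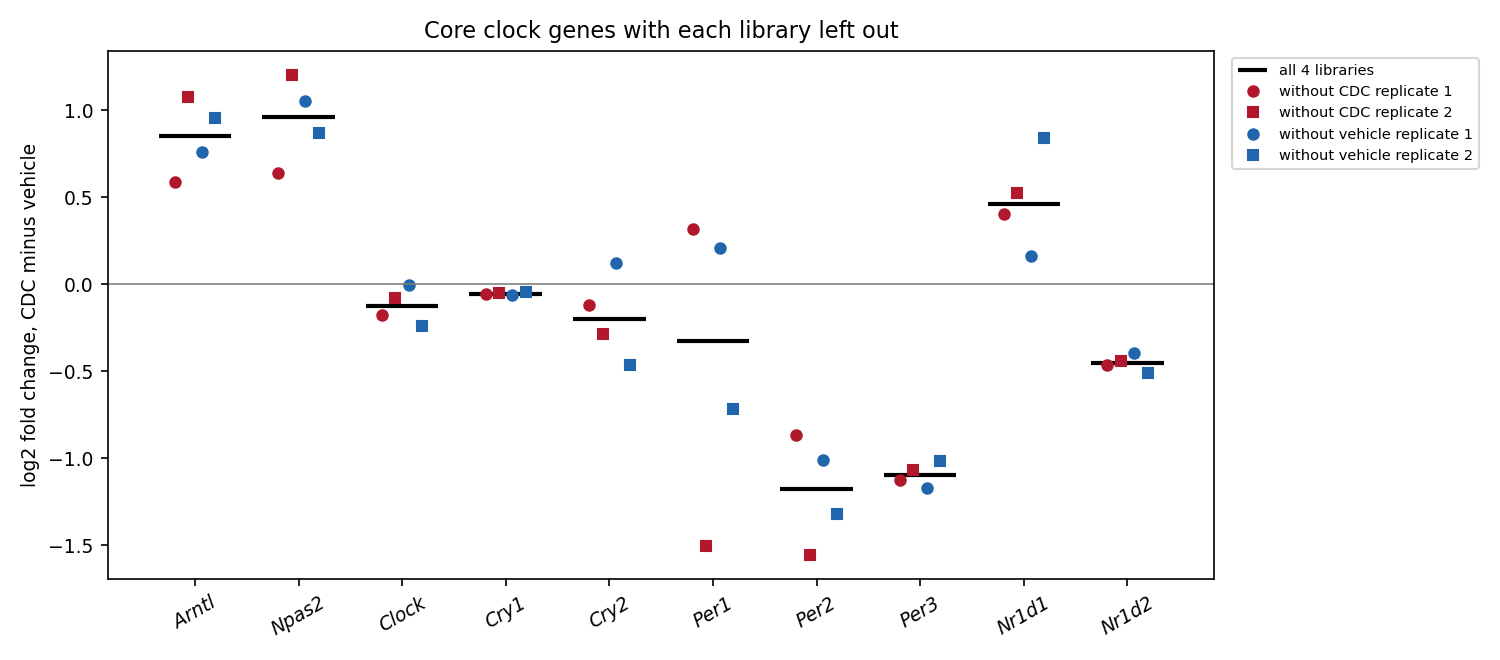
Log2 fold change of each core clock gene (mCDC minus vehicle) from the fit to all 4 libraries (black line) and from fits that leave out 1 library (points, marked by the library left out). Per3, Nr1d2 and Cry1 hardly move, while Per1 runs from -1.50 to 0.31 and Nr1d1 from 0.16 to 0.84.

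Read by phase, the 4 libraries fell in a graded order rather than in 2 tight groups. The mean of the activators was 3.32 and 2.95 log2 CPM in mCDC replicates 1 and 2 against 2.64 and 2.58 log2 CPM in vehicle replicates 1 and 2. The mean of the opposite class was 5.49 and 5.90 log2 CPM in mCDC libraries against 6.28 and 6.10 log2 CPM in vehicle libraries. The difference of these means, called the phase contrast, was -2.17 in mCDC replicate 1, -2.95 in mCDC replicate 2, -3.63 in vehicle replicate 1 and -3.52 in vehicle replicate 2. mCDC replicate 1 was thus furthest to the side of the activators, and mCDC replicate 2 lay nearly midway between it and the vehicle libraries. Per1, in the opposite class, had 30.9 CPM in mCDC replicate 1 and 109 CPM in mCDC replicate 2. The contrast was not computed without Per1, so its share in this order was not tested. Group means were -2.56 ± 0.56 (SD, n = 2) and -3.57 ± 0.082 (SD, n = 2), a difference of 1.02 on the log2 scale, with 0.62 when mCDC replicate 1 was dropped and 1.41 when mCDC replicate 2 was. The ratio of Arntl to Per2 per length had the same order, but it reuses values of the contrast and is no separate support. That ratio was 4.38 and 1.94 in mCDC libraries against 0.594 and 0.847 in vehicle libraries. The ratio of Arntl to its repressor gene Nr1d1 overlapped between the groups, at 0.0623 and 0.0483 against 0.0513 and 0.0369. Unlike the class in which it was set here, Nr1d1 was higher where Arntl was higher. Clock, known to cycle weakly, did not move with Arntl and Npas2. The classes take no account of differences in peak time among their genes, and the time of day that these values match was not tested.

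**Figure D4:**
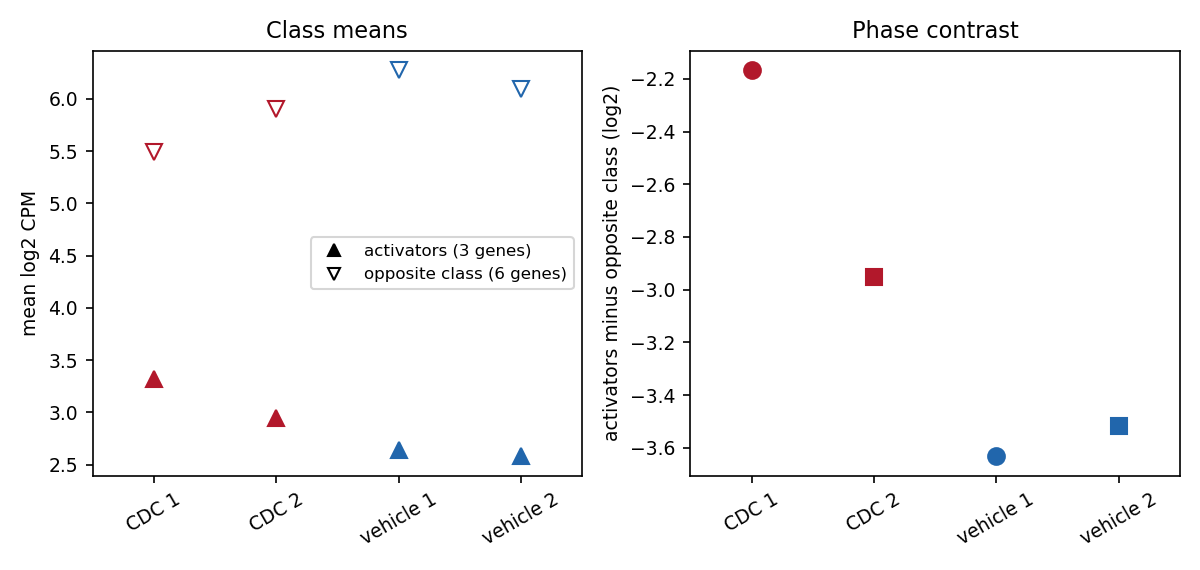
Left, mean log2 CPM of the 3 activators (filled, up) and of the 6 genes of the opposite class (open, down) in each library. Right, the difference of the means, from -2.17 in mCDC replicate 1 to -3.63 in vehicle replicate 1, red for mCDC (CDC) and blue for vehicle.

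The thresholds of the study were a change of more than 1.5-fold and an unadjusted p below 0.05. By edgeR's quasi-likelihood test 4.0% of the 13652 genes tested passed both thresholds, 1.26% being higher and 2.74% lower in mCDC libraries, and are said to be called. Of the 10 clock genes, Arntl and Npas2 lay past these thresholds on the higher side and Per2 and Per3 on the lower side. By DESeq2 3 genes did, and Npas2 did not. The 10 genes were selected on this contrast, so this is no test of them and nothing is read from the count. Across all genes tested, the mCDC libraries both lay above the vehicle libraries in 19.2% and below them in 19.5%, and of the 10 genes 3 lay above and 4 below. The median log2 fold change was 0.85 over the activators and -0.39 over the opposite class, beside -0.01 over all genes tested. No gene of the 13652 had an adjusted p under 0.05 in edgeR's quasi-likelihood test, where 947 had an unadjusted p under 0.05. DESeq2 gave 51 and edgeR's likelihood ratio test 66 genes with an adjusted p under 0.05.

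The wider clock was represented by 32 accessory genes, of which 30 could be tested, Rorb and Fbxl21 being too low. Of the 30, none was called higher and 4 were called lower, Hlf, Wee1, Ciart and Dbp, beside 1.26% and 2.74% of all genes, and the median log2 fold change was -0.08. Hlf, which encodes a PAR bZIP factor that acts at D-boxes, had 2.99 and 2.51 CPM in mCDC libraries against 6.03 and 8.33 CPM in vehicle libraries. Its log2 fold change was -1.38 (standard error 0.26, edgeR adjusted p = 0.450), and it was called with each library left out. Dbp, a relative of Hlf with strong daily rhythm, had 93.2 and 138 CPM against 170 and 206 CPM, a log2 fold change of -0.71 (standard error 0.20, edgeR adjusted p = 0.619). It was not called without mCDC replicate 1, at -0.45, or without vehicle replicate 2, at -0.56. The third such gene, Tef, named here after its values were seen, had 166 and 169 CPM against 216 and 220 CPM and was not called, at a log2 fold change of -0.38. Ciart, whose protein CHRONO represses the activators, had 5.68 and 12.8 CPM against 17.9 and 14.1 CPM. The log2 fold change of Ciart was -0.80 (standard error 0.34, edgeR adjusted p = 0.714), and it was not called without mCDC replicate 1, at -0.32, nor when either vehicle library was dropped, at -0.61 and -0.96, nor when low-count genes were kept, at -0.81. Wee1, a cell cycle kinase known as a clock target, had 1.17 and 1.92 CPM against 3.89 and 2.44 CPM, a log2 fold change of -1.05 (standard error 0.37, edgeR adjusted p = 0.684). Without mCDC replicate 1 or vehicle replicate 1 it was not called, at -0.72 and -0.67. By DESeq2, Hlf had an adjusted p of 0.0359, Dbp of 0.183, Ciart of 0.783 and Wee1 of 0.958.

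The accessory genes not called included the activating and modifying arms of the loop. Rora, which encodes a nuclear receptor that competes with REV-ERB at the Arntl promoter, had 46.1 and 40.1 CPM against 53.6 and 49.4 CPM, or -0.26 on the log2 scale (standard error 0.14), which was -0.02 with the trend in length and GC content removed. Nfil3, a repressor at D-boxes, had 20.0 and 14.3 CPM against 22.6 and 9.13 CPM and a log2 fold change of 0.12 (standard error 0.38), which was 0.03 with that trend removed, and the groups overlapped. Its change fell below 0 when mCDC replicate 1 (-0.15) or vehicle replicate 2 (-0.40) was dropped, and it was 0.91 and called when vehicle replicate 1 was. The E-box repressor Bhlhe40 had 139 and 161 CPM against 120 and 112 CPM, a log2 fold change of 0.37 (standard error 0.14), and its paralog Bhlhe41 one of 0.11 (standard error 0.15), which was 0.28 with that trend removed. The kinase genes Csnk1d and Csnk1e, whose products mark PER proteins for degradation, had 0.23 and 0.26 (standard error 0.14 each).

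**Figure D5:**
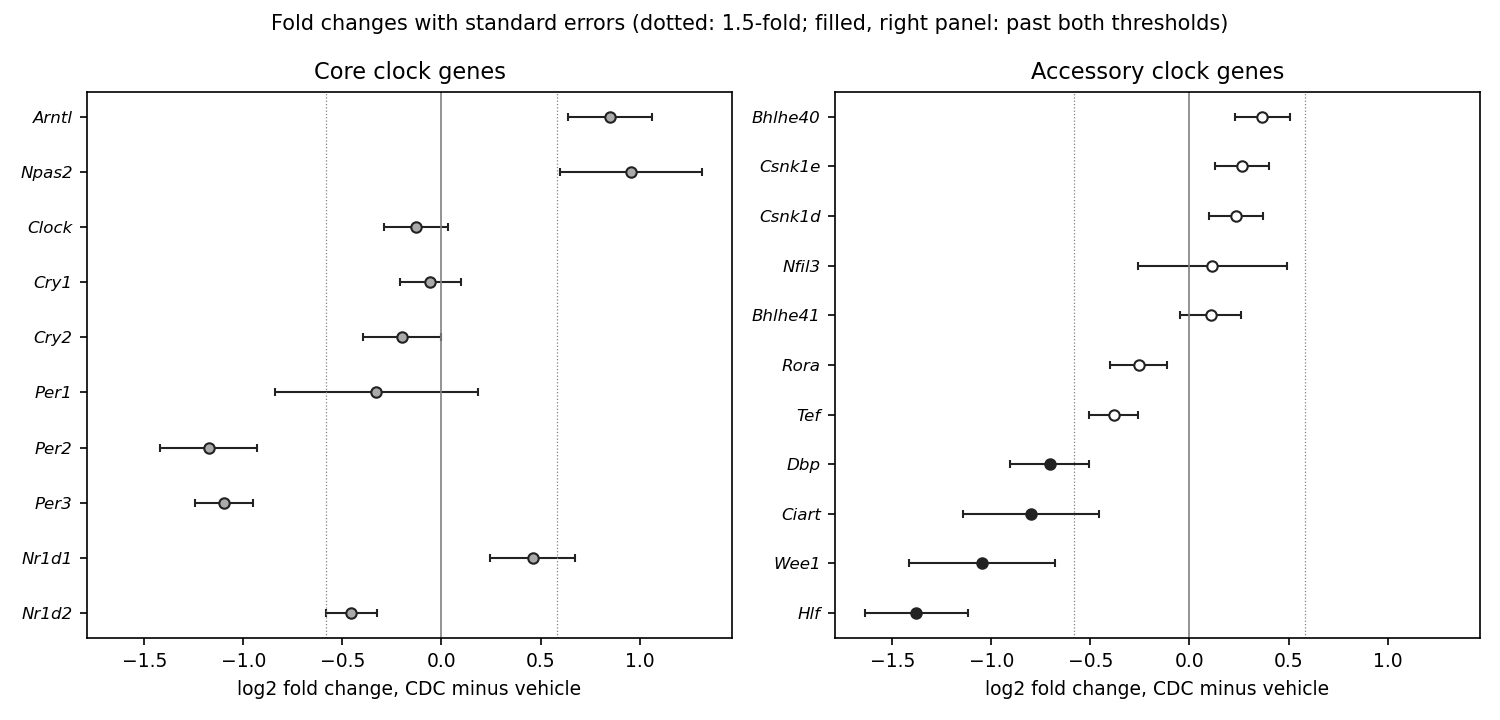
Log2 fold change (mCDC minus vehicle) with its standard error for the 10 core clock genes (left) and the 11 accessory clock genes whose values are described (right). Dotted lines mark 1.5-fold, and filled points on the right passed the fold and the unadjusted p threshold, namely Hlf, Wee1, Ciart and Dbp. Core genes, which were selected on this contrast, are gray and not marked by the threshold.

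Genes that answer to hormones, handling and temperature, signals known to reach the clock, were set beside these values. Of 10 glucocorticoid-responsive genes, 3 were called higher (Mt1, Mt2 and Cdkn1a) and 4 lower (Tsc22d3, Sgk1, Zbtb16 and Ddit4), beside 1.26% and 2.74% of all genes tested, with a median log2 fold change of -0.18 and summed levels of 614 and 784 CPM in mCDC libraries against 736 and 593 CPM in vehicle libraries. Tsc22d3, which encodes the glucocorticoid-induced leucine zipper, had 61.6 and 60.8 CPM against 130 and 91.6 CPM (log2 fold change -0.85, edgeR adjusted p = 0.510). Ddit4, an inhibitor of mTORC1 signalling, had 6.32 and 6.08 CPM against 27.8 and 12.8 CPM, and vehicle replicate 1 was highest. Sgk1 was also highest in vehicle replicate 1, at 62.3 CPM, and Zbtb16 at 102 CPM. The metallothionein genes Mt1 and Mt2 were highest in mCDC replicate 2, at 201 and 149 CPM, while in the other 3 libraries Mt1 ran from 52.9 to 73.7 CPM and Mt2 from 26.2 to 44.7 CPM. Over the 7 called genes the edgeR adjusted p ran from 0.462 to 0.714. By DESeq2 the adjusted p was 0.000473 for Ddit4, 0.00839 for Cdkn1a and 0.0207 for Tsc22d3, and 0.635 or more for the other 4. Cdkn1a, a cell cycle inhibitor gene, had 75.4 and 97.8 CPM against 40.8 and 52.1 CPM. Fkbp5, a standard readout of glucocorticoid action, was not called, with 55.3 and 26.9 CPM against 30.1 and 26.5 CPM, and only mCDC replicate 1 stood apart. Of 8 immediate early genes, again beside 1.26% higher and 2.74% lower over all genes tested, 1 was called, Atf3, higher at 21.6 and 60.0 CPM against 14.0 and 11.8 CPM (adjusted p = 0.567 by edgeR and 0.723 by DESeq2), while Fos had a log2 fold change of 0.04 and the list a median of 0.45. Of 7 temperature-responsive genes, beside the same shares, 1 was called, Hspa1b, higher at 135 CPM in both mCDC libraries against 90.2 and 58.5 CPM (adjusted p = 0.567 by edgeR and 0.0309 by DESeq2). The median of that list was 0.13. In 4 of the 7 both mCDC libraries lay above the vehicle libraries, and in 1, Cirbp, below, beside 19.2% and 19.5% of all genes tested. Hspa1a, among the 4, had 195 and 152 CPM against 148 and 98.6 CPM and was not called. Summed levels were 371 and 441 CPM against 310 and 352 CPM for the immediate early genes and 2550 and 3000 CPM against 2540 and 2400 CPM for the temperature genes. The part of these genes in the clock differences was not tested.

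The tissue matched its label, since the 7 slow fiber genes of soleus summed to between 73200 and 89700 CPM in each library, and the 7 fast fiber genes to between 24900 and 30700 CPM, with none of either list called. For 5 slow fiber genes, Myl2, Tnni1, Tnnt1, Tnnc1 and Myl3, both mCDC libraries lay above the vehicle libraries, beside 19.2% of all genes tested. Their log2 fold changes ran from 0.09 to 0.27. No fast fiber gene did so. Within the fast fiber list single genes varied far more than the sum. Myh4, the myosin gene of the fastest fibers, had 2100 CPM in mCDC replicate 1 and 47.5 CPM in mCDC replicate 2, against 163 and 411 CPM in vehicle libraries. Actn3 was also highest in mCDC replicate 1, at 932 CPM against 227 CPM in mCDC replicate 2 and 471 and 341 CPM in vehicle libraries, and Myh1 had 4160 and 603 CPM against 4490 and 1660 CPM. The library mCDC replicate 1 was also the furthest out for Arntl, Per2 and the phase contrast, whose values without it are given above, and the part of fiber composition in them was not tested. Marker sums of several other cell types were highest in vehicle replicate 2. They ran from 279 to 320 CPM in the other 3 libraries against 515 CPM in vehicle replicate 2 for fibroblast genes, from 86.2 to 111 against 197 CPM for endothelium, from 28.0 to 32.2 against 47.3 CPM for Schwann cells, from 244 to 279 against 454 CPM for red cells and from 29.9 to 44.0 against 55.2 CPM for macrophages. Every marker of these lists but Cd68 was highest in that library. Adipocyte markers were divided, since Fabp4, which had 200 CPM in vehicle replicate 2 against 114 to 124 CPM elsewhere, made up most of their sum, while Adipoq, Plin1, Cfd, Retn and Cidec were all lowest there, with 1.49 CPM against 3.33 to 5.46 CPM for Adipoq. No marker was at 0 in all 4 libraries. Called markers were Pdgfra, Lum, Csf1r and Hba-a2, lower, and Cd68 and the satellite cell gene Pax7, higher. Of these Hba-a2 had an adjusted p of 0.00132 by DESeq2, at 14.5 and 14.8 CPM against 28.6 and 31.7 CPM. No other red cell gene was called. The more abundant Hba-a1, at 234 and 243 CPM against 199 and 369 CPM, overlapped between the groups. Cd68 had 4.13 and 15.4 CPM in mCDC libraries against 2.71 and 4.15 CPM in vehicle libraries, so that the groups overlapped and mCDC replicate 2 alone stood apart, and satellite cell sums were 55.2 and 51.0 CPM against 44.8 and 46.8 CPM. Cdh15, at 38.0 to 46.6 CPM, made up most of those sums, and Myf5 (0.03 on the log2 scale) and Vcam1 (-0.11) overlapped between the groups. Without vehicle replicate 2, the log2 fold changes were -1.32 for Per2, -1.02 for Per3, 0.96 for Arntl, -0.51 for Nr1d2 and 0.87 for Npas2. The groups of these genes do not overlap, so leaving out 1 library could hardly turn their sign. The part of cell composition in them was not tested. In that fit Per3, Npas2 and Cry1 moved toward 0, and the other core clock genes moved further from it. The change was from 0.46 to 0.84 for Nr1d1, from -0.20 to -0.46 for Cry2, from -0.33 to -0.72 for Per1 and from -0.13 to -0.24 for Clock. In whole muscle, fewer cells of a kind and less RNA per cell cannot be told apart.

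Among the 3 genes whose profile over the 4 libraries lay nearest to that of Arntl, by Euclidean distance between centred log2 CPM among 13651 genes, were Cldn2 and Chrna2, at distances of 0.182 and 0.193. Cldn2 had under 1 CPM in each library, so that few counts lie behind its profile. Npas2 was in place 10 of that order, at a distance of 0.268, Nr1d1 in place 133 and Clock in place 8125. The core genes were selected on this contrast, so near places among them are no support. Nearest to Per2 were Gm14305, 4430402I18Rik and Lmbrd2, at distances of 0.166, 0.170 and 0.194, again at low levels of at most 1.83 CPM. Per3 was in place 98 of that order and Per1 in place 2140. None of the 3 nearest genes of either was among the 3 nearest when Pearson correlation was used as the measure of likeness.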

How the data were processed

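The data are 4 soleus RNA-seq libraries, 2 mCDC and 2 vehicle. The deposited values are expected counts, which the authors estimated with RSEM from single-end reads aligned by Bowtie 2 against UCSC transcripts, and are not normalized; the submitters' processing notes name Bowtie2 2.1.0, RSEM 1.2.15 and mm10. The release of the transcript set and any use of strand are not given in the sources used here, and the sample labels and the paper name different library kits. Totals of 22481391 to 27187425 counts limit the precision of genes such as Npas2, which had 25 to 59 counts.

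Expected counts were rounded to whole numbers, filtered with filterByExpr, scaled by TMM and tested over 13652 genes with edgeR 4.0.16 in R 4.3.3 (quasi-likelihood F-test, legacy = FALSE). Calls needed more than a 1.5-fold change and an unadjusted p below 0.05, and adjusted p-values are Benjamini-Hochberg values over all genes tested. Standard errors are the absolute log2 fold change over the square root of F. A prior count of 2 was used for log2 CPM in the phase contrast and the profile distances. Symbols were matched to GENCODE M21 and RefSeq names on GRCm38 (22750 by their own and 916 by an older name of 24054, with Noct listed as Ccrn4l and Adgre1 as Emr1), and transcript lengths come from there. A comparison of protein sequences was planned and was not run. The members, lists, phase classes and tests were chosen with earlier results of these data known, and patterns already known from them are not independent support. Named genes were the 10 members, called accessory genes with others set by name, called genes of the input lists with Fkbp5, Fos and Hspa1b, and the 3 genes nearest to Arntl and to Per2; markers that were called are named as well, and some genes under this rule are not reported here. The fit was tested on simulated data. Alternatives were DESeq2 1.42.0, other edgeR tests, other scaling and filters, removal of a length and GC trend, the replicate number as a block, and leaving out each library.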

Additional observations from a re-analysis of the deposited data

How the results depend on the processing

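Per2, Per3, Nr1d2 and Cry1 were lower and Arntl, Npas2 and Nr1d1 higher in mCDC libraries as reported and in all 12 alternatives, which is no sign of stability in genes selected on this contrast whose groups do not overlap. With a library left out, calls ran from 112 to 396 higher and from 237 to 834 lower over all genes, from 2 (without mCDC replicate 1) to 5 (without mCDC replicate 2) of the 10 core genes and from 1 to 5 accessory genes, and the phase contrast difference from 0.62 to 1.41. Leaving out vehicle replicate 1 gave the 834 lower calls, leaving out mCDC replicate 1 the 396 higher calls and the 1 accessory gene, and leaving out mCDC replicate 2 the 112 and 237; a fit with 1 library in a group assumes that it varies like the others. With the trend in length and GC content removed, 213 genes were higher and 277 lower, a share of 43.5% higher against 31.5%, and the median over all genes tested moved from -0.01 to 0.03. Without a library Bhlhe41 ran from -0.0679 (mCDC replicate 2) to 0.2643 (mCDC replicate 1), and Nfil3 from -0.3968 (vehicle replicate 2) to 0.9124 (vehicle replicate 1), with -0.1506 for mCDC replicate 1. The cause of these changes was not tested, beyond the fewer libraries.

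Replicate numbers are shared between the groups, but nothing says that they pair the libraries. Deviations of same-numbered libraries from their group means correlated at -0.039 over 13652 genes. With the replicate block, 172 genes were called higher and 309 lower, and the same number of core genes, 4, was called. Low counts limit Npas2, Wee1 and Hlf, and groups of 2 are too small for a check of outlying libraries.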
